A study of Arabidopsis thaliana with 3 samples.

Results

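The core circadian clock genes of Arabidopsis thaliana described here are CCA1, LHY, RVE8, PRR9, PRR7, PRR5, TOC1, GI, ELF4 and LUX, 10 of the 27444 protein-coding genes on the nuclear chromosomes. They were chosen by name as the genes of the central oscillator, with earlier results of these data known. All 10 names were found as a symbol or synonym in the RefSeq gene table, LUX as a synonym of PCL1. Each gene was set against a list of regions from chromatin immunoprecipitation followed by sequencing (ChIP-seq) of histone deacetylase 6 (HDA6) fused to green fluorescent protein (GFP). The plants were seedlings of the Col-0 ecotype carrying HDA6pro::HDA6:GFP, a transgene in which the HDA6 promoter drives the fusion, grown for 14 days in long days. The GFP antibody was used for 2 ChIP samples, and there was 1 input sample from plants of the same kind. Every sample carried the transgene, and no sample from plants without it was analysed here.

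The plant clock is a network of genes that mostly repress one another in a daily sequence. CCA1 and LHY are closely related MYB-type factors that peak around dawn and repress evening genes. PRR9, PRR7, PRR5 and TOC1 are pseudo-response regulators that follow one another from morning to evening and repress CCA1 and LHY. ELF4 and LUX act together with ELF3 in the evening complex, another repressor, whereas RVE8 is a MYB-type activator of evening genes and GI stabilises the photoreceptor ZTL and connects the clock to flowering. HDA6 removes acetyl groups from histones, a change that goes with lower transcription. It has been described in repressor complexes with the demethylases LDL1 and LDL2 and with clock proteins, among them CCA1, LHY and TOC1, so its position at the genes of the clock is a question these data bear on.

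The authors deposited 1 list of 7477 nuclear ChIP regions and 1 list of 169984 nuclear input intervals, given as positions on the TAIR10 build with no score. Neither list separates replicates, read depth is unknown, and no value below has a replicate error or a test. Whole seedlings were used, so cell types are pooled, and the labels used here give the age but not the hour of harvest, although the clock genes and proteins rise and fall over the day. A gene counted as having a region when at least 1 bp of a region lay in its body or within 1 kb on either side. Distances were measured between the nearest bases of gene and region. The gene table gives no strand, so gene ends are named as lower or higher after their coordinate, and starts and ends of transcription were not told apart.

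GI and RVE8 had an HDA6-GFP region in the gene body or the 1-kb flank, and the other 8 core clock genes had none. In the same window, 8.56% of all nuclear protein-coding genes had a region, and 7.04% of the 24247 protein-coding genes in the chromosome arms, more than 3 Mb from a centromere midpoint. All 10 core genes lay in the arms, between 3.19 Mb (LUX) and 15.6 Mb (CCA1 and PRR9) from the centromere midpoint of their chromosome. The 2 of 10 genes make 20.0%, but with 10 genes each one moves the share by 10 percentage points, so the count does not set the list apart from the background. Of the genes with a region, GI lay at a distance of 0 bp and RVE8 at 443 bp. The nearest of the genes without one was LHY, at 5366 bp, so no core gene lay close to the 1-kb limit on its outer side.

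GI was the one core clock gene with a region inside its own body. The region lay on chromosome 1 at 8063624 to 8063884 and measured 261 bp. All of it was within GI, which is 6040 bp long in the gene table, from base 1874 to base 2134 counted from the lower end, or 31.0 to 35.3% of the way along the gene. The higher end of the gene was 3906 bp away, so the region lay inside the gene and more than 1 kb from both ends. No other annotated gene overlapped it. A region in the body was found for 4.69% of arm protein-coding genes and 5.8% of all nuclear ones. GI is one of the longer genes of the genome, and in the tenth of arm genes with the greatest length, from 4247 bp upwards, 7.42% had a region in the body and 9.48% in the body or 1-kb flank. LHY and PRR7 belong to the same length class and had none. The next regions around GI lay 35.8 kb away on the lower side and 161 kb away on the higher side.

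The region counted for RVE8 lay inside the next gene rather than in RVE8. It ran from 2949460 to 2949726 on chromosome 3 and measured 267 bp, beginning 443 bp past the higher end of RVE8. All of it was within AT3G09620, a protein-coding gene without a symbol in the table, which begins 135 bp from RVE8. Such cases were common: 570 protein-coding genes of the arms had regions in the flank alone, and of these 435, or 76.3%, had nothing but regions lying wholly inside another annotated gene. When these were not counted, an alternative chosen after seeing the data, GI remained the only core clock gene with a region, against 5.25% of arm protein-coding genes and 6.69% of all nuclear ones. The other side of RVE8 had no region for 129 kb.

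**Figure D1:**
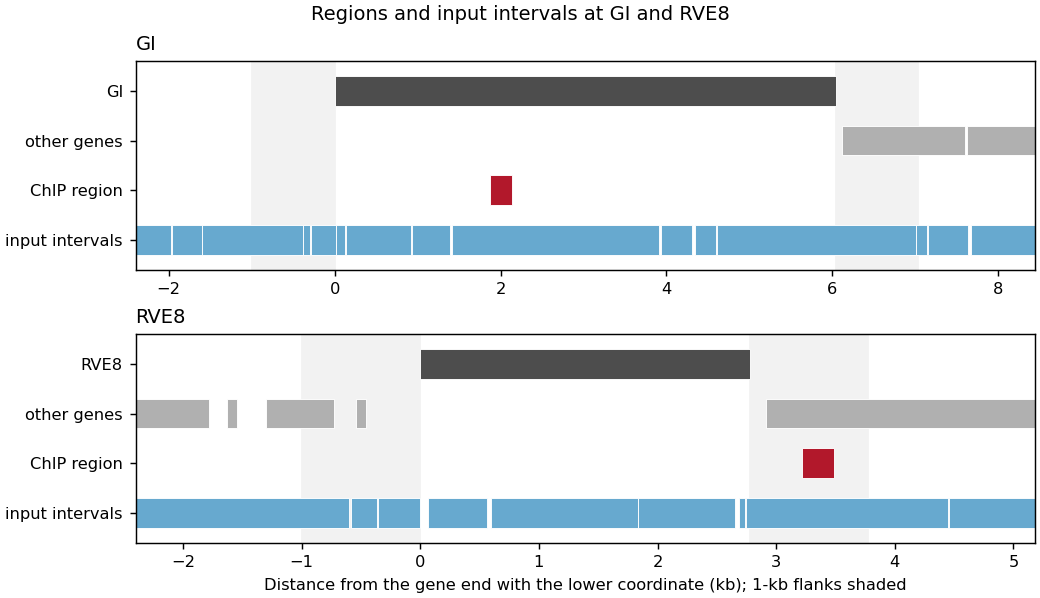
Map of GI (upper panel) and RVE8 (lower panel), with distance in kb from the gene end with the lower coordinate on the horizontal axis and separate tracks for the gene, other annotated genes, the ChIP region and the input intervals. The 1-kb flanks are shaded. The 261-bp region lies inside GI, whereas the 267-bp region beside RVE8 lies in the flank and inside a neighbouring gene.

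CCA1 and LHY, the dawn-phased MYB genes, had no region in the body or 1-kb flank. The region nearest to LHY, at 27719 to 27999 on chromosome 1, lay 5.37 kb away on the lower side and measured 281 bp. It lay wholly inside DCL1, which encodes the nuclease that processes microRNA precursors, and 1 protein-coding gene stood between it and LHY. On its higher side LHY had no region for 84.1 kb. CCA1 lay farther from any region, at 30.5 kb, with 7 protein-coding genes in between. These values place LHY among the nearer arm genes and CCA1 beyond the middle: 18.2% of arm protein-coding genes lay as near to a region as LHY or nearer, and 59.6% as near as CCA1 or nearer.

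None of the 4 pseudo-response regulator genes had a region within 1 kb either, and their distances ran from 6.08 to 61.1 kb. PRR5 was the nearest, at 6.08 kb from a region of 250 bp on chromosome 5 (8364627 to 8364876) that lay inside AT5G24480, with no whole protein-coding gene in between. PRR7 lay 13.4 kb from a region at 655464 to 655769 on chromosome 5, inside AT5G02860. PRR7 also had a region on its other side, 17.3 kb away. PRR9 lay 17.5 kb from its nearest region. TOC1, the evening regulator whose product represses CCA1 and LHY, was the core gene farthest from any region, at 61.1 kb on the higher side and 87.3 kb on the lower side. There were 15 protein-coding genes between TOC1 and its nearest region, no region lay within 50 kb of it, and 82.9% of arm protein-coding genes lay as near to a region or nearer.

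PRR9 and CCA1 are neighbours on chromosome 2, separated by 10.4 kb, and shared their nearest region. It ran from 19214707 to 19215058, measured 352 bp and lay inside GulLO6, a gene named for L-gulono-lactone oxidase. The 10 core genes therefore had 9 distinct nearest regions, and the distances of CCA1 and PRR9 are not independent of each other. The next region on the far side of the pair lay 59.0 kb from CCA1 and 72.7 kb from PRR9.

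The evening complex genes ELF4 and LUX had no region in the body or flank. ELF4, the shortest of the 10 genes at 660 bp, lay 10.9 kb from a region of 317 bp on chromosome 2 (16723112 to 16723428). That region was inside NRPD1B, also called NRPE1, which encodes the largest subunit of RNA polymerase V, an enzyme of RNA-directed DNA methylation. LUX lay 19.0 kb from a region of 307 bp on chromosome 3 (17205930 to 17206236), of which 17.6% overlapped AT3G46710. LUX had 3 regions within 50 kb, the highest number among the core genes, and it was also the gene nearest to a centromere.

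**Figure D2:**
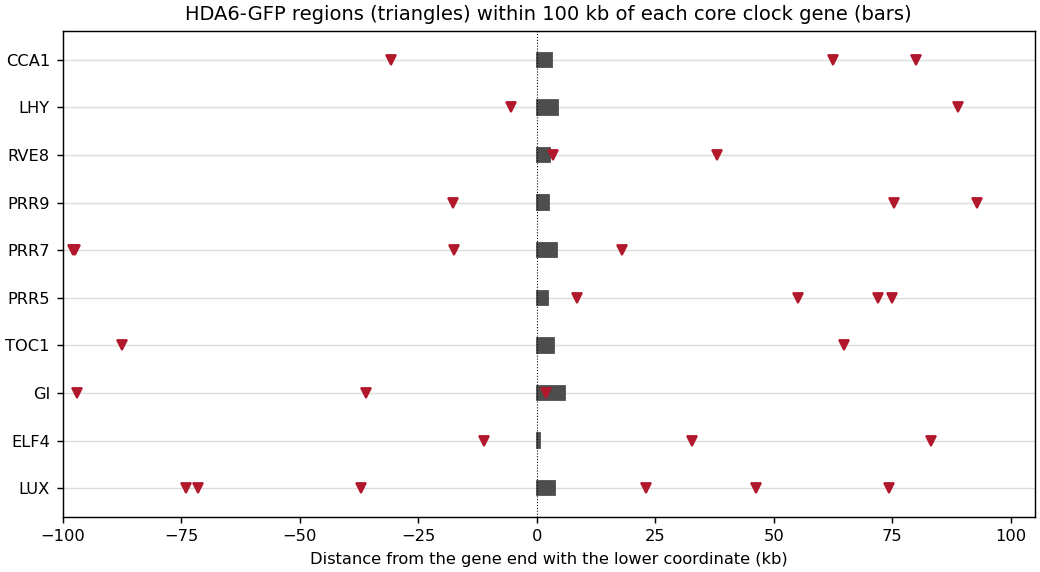
HDA6-GFP regions (triangles) within 100 kb of the 10 core clock genes (bars), with distance in kb from the gene end with the lower coordinate on the horizontal axis and 1 gene per line. A region lies within GI and beside RVE8, while the space around TOC1 is empty for 61.1 kb on one side and 87.3 kb on the other.

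Over all 10 core clock genes, the median distance to the nearest region was shorter than that of arm genes. The median distance was 12.2 kb, against 22.9 kb for arm protein-coding genes, whose quartiles were 8.38 and 47.7 kb, and against 20.3 kb for all nuclear protein-coding genes. Ordered by distance, the genes were GI, RVE8, LHY, PRR5, ELF4, PRR7, PRR9, LUX, CCA1 and TOC1. With a single region list no spread can be given for any step of this order. CCA1 and TOC1 were the 2 genes beyond the arm median, and the other 8 lay inside it. Within 10 kb of the gene a region was found for 4 of 10 core genes, against 28.4% of arm protein-coding genes and 32.0% of all nuclear ones. Within 20 kb a region was found for 8 of 10, against 45.8% of arm protein-coding genes and 49.6% of all nuclear ones. The core genes had a median of 1.5 regions within 50 kb, and arm protein-coding genes a median of 1. Each core gene moves the shares within 10 and 20 kb by 10 percentage points, and CCA1 and PRR9 shared a nearest region. The differences from arm genes were not tested.

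The shorter distances held for the full list but not for its wider regions. With regions of at least 337 bp, the median width of the nuclear list, the median distance of the core genes was 107 kb, above the 88.3 kb of arm protein-coding genes, and no core gene had a region in the body or 1-kb flank. Of the 9 nearest regions, 8 were narrower than 337 bp and 5 were narrower than the arm median of 297.5 bp. Their widths ran from 250 to 352 bp. The regions at GI and RVE8 were on the narrow side, as 25.4% of the 1634 arm regions were as narrow as that of GI or narrower and 29.6% for that of RVE8. The core genes were also longer than arm genes in general, with a median length of 3456.5 bp against 2111 bp, and the part of gene length in these distances was not tested.

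**Figure D3:**
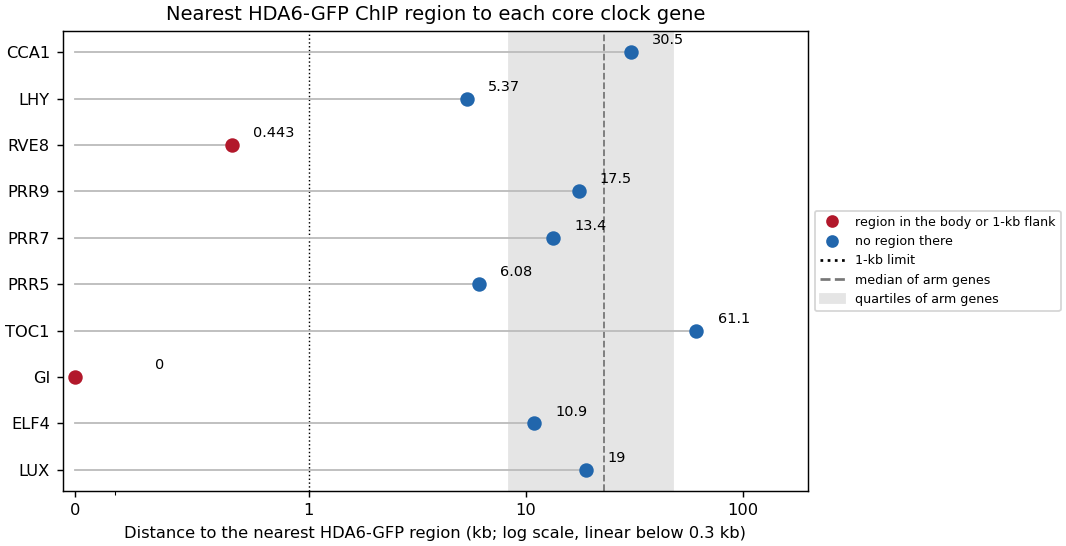
Distance from each core clock gene to its nearest HDA6-GFP region in kb (horizontal axis, log scale, linear below 0.3 kb), with genes having a region in the body or 1-kb flank in red and the others in blue. The dashed line and grey band give the median (22.9 kb) and quartiles (8.38 and 47.7 kb) of arm protein-coding genes. GI and RVE8 lie inside the 1-kb limit, and CCA1 and TOC1 are the genes to the right of the dashed line.

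Input intervals covered nearly all of the sequence at the core clock genes, whether or not a ChIP region was present. Over the body and 1-kb flanks, coverage ran from 95.9% at PRR5 to 99.7% at LUX, with a median of 98.2% against 98.3% for arm protein-coding genes. The number of input intervals per window ran from 3 at ELF4 to 12 at LHY. At GI there were 11 intervals covering 98.0%, and at RVE8 8 intervals covering 96.5%. At TOC1, CCA1 and LHY, which had no region, the coverage was 99.3%, 98.3% and 98.0%. These lists hold no read count, so the coverage shows that input reads reached these genes and does not measure how many.

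The region in GI lay wholly within a single input interval of 2495 bp, the widest at that gene, and the region beside RVE8 wholly within one of 1699 bp. For comparison, the widest input interval under an arm region had a median of 1374 bp with quartiles of 842 and 2049.75 bp, and 66.3% of arm regions were fully covered by input. The interval under the GI region was thus above the upper quartile, and 82.4% of arm regions had one as narrow or narrower. Whether the width of the input interval has a part in the call at GI was not tested. The widest input intervals among the core genes were those of ELF4 and LUX, at 5238 and 6330 bp. At 98.7% and 99.7% of arm protein-coding genes, the widest interval was no wider than at ELF4 and at LUX. Both intervals reached past the gene window and are given at full width. Neither gene had a ChIP region in its window, whereas LDL1, a gene outside the core with a widest interval of 5346 bp, had regions. Any link between interval width and region calls was not tested.

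Around the core oscillator, a wider list of clock regulators, co-repressors and outputs had regions at a share near the background. Of 42 genes listed, 38 were found by name in the gene table, and 2 of these 38, or 5.26%, had a region in the body or 1-kb flank, where 7.04% of arm protein-coding genes and 8.56% of all nuclear ones had one. Their median distance was 22.2 kb, near the 22.9 kb of arm protein-coding genes and the 20.3 kb of all nuclear ones. ELF4-L3 and TPR3, at 1.14 and 2.19 Mb from a centromere midpoint, lie outside the arms. By role, 0 of 8 MYB-like genes and partners had a region, 1 of 6 evening complex genes and relatives, 0 of 3 F-box photoreceptors, 0 of 4 other clock regulators, 1 of 7 co-repressors and 0 of 9 outputs. PRR3, a pseudo-response regulator related to TOC1, had none within 1 kb, and its nearest region lay 1642 bp away inside AT5G60090. ELF3, the third member of the evening complex, lay 21.1 kb from a region, and BOA, a relative of LUX, 14.9 kb.

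The 2 genes of the wider list with a region were LDL1 and ELF4-L3. LDL1, a histone demethylase described as a partner of HDA6, had regions at 23266047 to 23266365 and at 23267075 to 23267341 on chromosome 1. The first lay wholly in the gene, and 147 of the 267 bp of the second did, with the rest past the higher end. Both were narrower than the nuclear median of 337 bp. The first measured 319 bp and lay within an input interval of 2716 bp, and 86.7% of arm regions had one as narrow or narrower. LDL2, a relative of LDL1, had none and lay 7.54 kb from a region. ELF4-L3, a relative of ELF4, had a region of 287 bp that began 932 bp past its higher end, at 2460872 to 2461158 on chromosome 2, in no annotated gene. ELF4-L3 lies 1.14 Mb from the centromere midpoint and had 42 regions within 50 kb, so its region belongs to the dense pericentromeric set. The co-repressor genes TPL and TPR1 to TPR4, whose products bind pseudo-response regulators, had no region in the window, and TPL was the nearest of them to one, at 13.1 kb.

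Further genes of the wider list lay within 5 kb of a region without having one in the window. They were RVE4 at 3.48 kb, LNK1 at 3.73 kb, PRR3 at 1.64 kb and CCR2, a clock-controlled RNA-binding protein gene, at 1.59 kb. With LDL1 and ELF4-L3 this makes 6 of 38 genes, or 15.8%, against 17.2% of arm protein-coding genes and 20.1% of all nuclear ones. RVE4, a relative of RVE8, shared its nearest region with PRR7, from which it is separated by 6.62 kb. The regions next to LNK1, PRR3, RVE4 and CCR2 lay wholly inside other genes, that of LNK1 in RPS28, which encodes a ribosomal protein. Among the outputs, CO, a flowering regulator, lay 24956 bp from a region, and CAB2, a chlorophyll-binding protein gene commonly used as a clock reporter, lay 117 kb away, the greatest distance of the list.

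**Figure D4:**
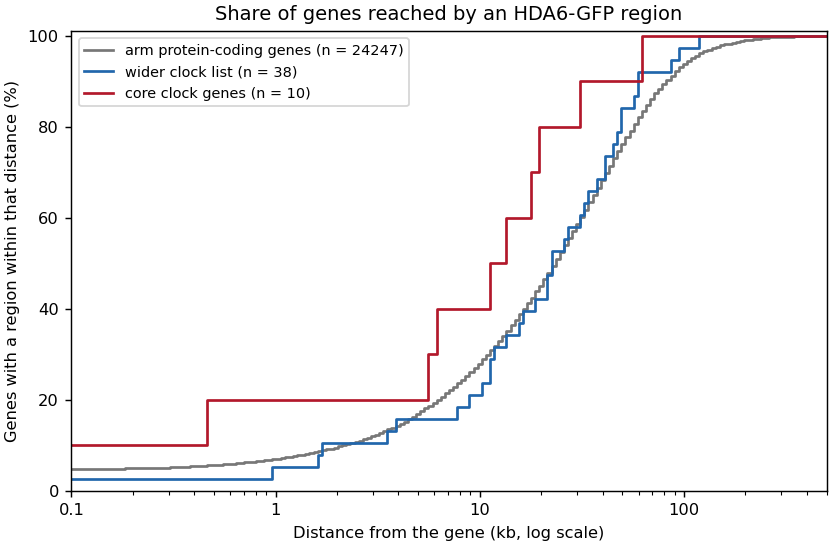
Share of genes (vertical axis, %) with an HDA6-GFP region within a given distance (horizontal axis, kb, log scale) for the 10 core clock genes, the 38 genes of the wider clock list and 24247 arm protein-coding genes. The wider list, in which ELF4-L3 and TPR3 lie outside the arms, runs close to the arm genes. The core genes, each a step of 10 percentage points, run above the arm genes, and all of them are reached at 61.1 kb.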

How the data were processed

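HDA6-GFP ChIP-seq was measured in 2 ChIP samples and 1 input sample of 14-day-old seedlings. Per the labels' protocols, DNA of at least 5 immunoprecipitations was pooled for each library. The input label also lists the antibody, and the sample was treated as input after its title. Bowtie, SICER and TAIR10 are named in the submitters' processing notes. No source used here gives their versions, roles or settings, or says whether replicates were combined. Each deposited line holds a sequence name with a start and an end in bp, and no other value. Each was taken as pooled over its group. Starts are printed counted from 1.

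Genes came from the RefSeq table of TAIR10.1, used for names, lengths and distances. Its coordinates are not printed. Its last gene bases and the last input bases differed by at most 2855 bp per chromosome. Overlaps, distances and coverage were computed with Python 3.11.15, numpy 2.4.6 and pandas 2.3.3, and the code was tested on simulated data. Centromere midpoints were set at 15, 3.6, 14, 4 and 11.7 Mb on chromosomes 1 to 5.

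No test was made, since no replicate values were given. The members and lists were chosen with earlier results of these data known. Named genes were the core genes, listed clock genes with a region within 5 kb and genes touched by the regions nearest to them; further genes of the wider list were named after their values were seen. Of that list, 4 names (RVE3, RVE5, RVE6, CDF5) were not in the table and were not counted. Planned motif, protein and exon descriptions were not run, as sequences, strand and exons were not used here. Alternatives changed the flank, the overlap, the region list, the distance and the genes compared.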

Additional observations from a re-analysis of the deposited data

How the results depend on the processing

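The count of 2 core clock genes with a region was the same with a 500-bp or 2-kb flank and when at least 50% of a region had to lie in the window. It was 1 with the gene body alone and 1 without flank regions wholly inside another gene (chosen after seeing the data), GI in both cases, and 0 with regions of at least 337 bp. The count of 2 genes in the wider list was 1 with the gene body alone, 1 with a 500-bp flank, 1 with the overlap of at least 50%, 4 with a 2-kb flank and 0 with the wider regions. Of all nuclear protein-coding genes, 8.56% had a region, with a 95% Wilson interval of 8.23 to 8.89% that covers counting error only. The interval treats genes as independent, although neighbouring genes can share a region. The share was 5.8% for the body, 6.94% with 500 bp, 11.5% with 2 kb, 7.76% with the overlap of at least 50%, 3.21% with the wider regions and 6.69% without flank regions inside other genes. It was 7.04% for arm genes, 9.48% for arm genes of the length of GI and 6.0% for those of the length of RVE8. The median distance of the core genes was 12.2 kb, 13.6 kb between midpoints (24.3 kb for arm genes) and 107 kb with the wider regions, where the order against arm genes turned. That of all protein-coding genes was 20.3 kb, and 22.9 kb in the arms. Input covered 98.1% of the bases at core genes, 98.4% of the body, 98.4% with 500 bp and 98.1% with 2 kb.

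Leaving out a replicate could not be run and no paired analysis was possible because the ChIP list does not separate replicates. With no scores or read depth, a gene without HDA6-GFP cannot be told apart from a gene where HDA6-GFP was present but no region was called.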
